A study of Homo sapiens with 32 samples.

Results

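The genes examined here were those of the cytosolic ribosome, measured by RNA-Seq in SK-N-BE(2) cells, a human neuroblastoma line, treated with cannabidiol (CBD) or vehicle. They were chosen by name: a row of the expression table was taken when its symbol was RPL or RPS followed by a number (with a closing A, X or L, or L and a number, where present), or was RPLP0, RPLP1, RPLP2 or RPSA. The rule found 83 of the 22610 rows, 52 for the large and 31 for the small subunit, and used no measured value. Cells received 20 μM CBD dissolved in ethanol, or 0.1% ethanol alone as vehicle, and were harvested after 3, 6, 12 or 24 h. Each of the 8 groups had 4 samples, 32 in all, and the SK-N-BE(2) background was shared by every group. The labels do not say whether the 4 samples of a group came from separate experiments, so p-values measure the spread between these samples, which may be technical. The comparisons ask how each transcript differed between CBD and vehicle at the same time, and how vehicle cultures changed over time.

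The cytosolic ribosome is built from ribosomal RNA and a set of about equally needed proteins, the RPL proteins in the large subunit and the RPS proteins in the small one. Many of their mRNAs begin with a C followed by a run of pyrimidines, the 5′ terminal oligopyrimidine (TOP) tract, through which mTOR signalling and LARP1 control their translation. Their transcripts are among the most abundant in growing cells, and numerous processed pseudogenes carry near-copies of them. A few have paralogs, such as RPL22L1 for RPL22 and RPS27L for RPS27, whose products can take the parent's place or act outside the ribosome. RPL5, RPL11 and RPL23 can also bind MDM2 and so link ribosome assembly to p53.

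Expression is given as FPKM, reads scaled to transcript length and to the mapped reads of the library, and differences as log2(FPKM + 1) of CBD minus vehicle with the standard error from limma; the added 1 understates changes of low genes. A member was called when its Benjamini-Hochberg adjusted p (limma, over all 12621 rows with a mean FPKM of at least 1) was under 0.01. Of the 83 members, 81 passed that minimum; RPL10L and RPL3L, with mean FPKM of 0.0137 and 0.171, did not. FPKM do not record depth, and relative depth estimated from low genes ranged from 0.794 to 1.20 times the median sample. All 12 neuroblastoma markers checked were expressed, MYCN at 1421 to 2452 FPKM. Of 12 fibroblast, epithelial and blood markers, 8 had a mean FPKM under 1, PTPRC and CD3E not exceeding 0.0305 and 0.0233, whereas LUM reached 44.1 to 67.8. In bulk RNA the amount of a transcript per cell and the share of cells that carry it cannot be told apart.

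To show the start sites behind the TOP class, the RefSeq sequence around annotated starts (GRCh38.p14) was read for the genes on which the results turn. A start was counted as having the tract when its first base was C and at least 4 more C or T followed without a break, on the gene's strand. Each line runs 5′ to 3′ from 10 bases before the start to 20 bases after it, with the tract in capitals; windows without capitals do not meet the rule.
RPL12 (chr9:127451387-127451416, minus strand): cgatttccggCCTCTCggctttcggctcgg
RPL22 (chr1:6199576-6199605, minus strand): cgctcacctcCCTTTCTaactccgctgccg
RPL22L1 (chr3:170870176-170870205, minus strand): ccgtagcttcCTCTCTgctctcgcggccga
RPL26 (chr17:8383174-8383203, minus strand): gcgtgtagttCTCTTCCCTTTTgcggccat
RPL26L1 (chr5:172958719-172958748, plus strand): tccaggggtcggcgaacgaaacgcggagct
RPL7L1 (chr6:42879606-42879635, plus strand): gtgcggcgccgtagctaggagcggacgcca
RPL3 (chr22:39319604-39319633, minus strand): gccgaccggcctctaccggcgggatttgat
RPL10A (chr6:35468391-35468420, plus strand): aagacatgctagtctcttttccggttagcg
RPS6 (chr9:19380217-19380246, minus strand): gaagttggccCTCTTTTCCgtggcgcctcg
RPL26L1 has a further annotated start, also without the tract. RPL3 and RPL10A, both core proteins, miss the rule by little: the run of RPL3 is broken early by an A, and that of RPL10A begins a few bases inside the transcript. Of the 67 members with an entry in the table, 47 had a start with the tract (70.1%), against 5.14% of all 27305 genes in it. Among the paralogs with an entry, RPL22L1 had it and RPL26L1, RPL7L1, RPS27L and RPL10L did not (1 of 5). A match describes these letters and not how the mRNA was translated.

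Levels differed widely between members although the ribosome needs its proteins in about equal amounts. Leaving out the 7 paralogs, mean FPKM over all samples ran from 125 for RPL27A (named after its value was seen) to 4199.6 for RPS27, a 33.6-fold range with a median of 1362. RPL41 and RPL37A followed RPS27, with 3081 and 3039. The medians of the large and small subunit, 1371 and 1362, were close. Of the 100 rows with the highest mean FPKM, 53 were members. The expressed paralogs were far lower, at 9.01 for RPL22L1, 18.7 for RPS27L, 44.4 for RPL26L1, 49.1 for RPL39L and 70.3 for RPL7L1. FPKM divide by transcript length, and short mRNAs such as those of RPL41 and RPS27 are more exposed to how that length is set, which was not tested.

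Replicates of most members were close. The coefficient of variation within a group, taken as the median over the 8 groups, had a median of 3.29% over the 81 members tested, against 4.03% over all rows tested. RPL22 varied least (1.60%) and RPS15 most (6.68%, named after its value was seen) among tested members other than RPL21. RPL21, singled out after its values were seen, reached 24.0%. Its FPKM were 186, 90.7, 141 and 154 in the vehicle and 63.4, 92.6, 63.4 and 99.7 in the CBD samples at 6 h, which overlap, and its difference of -0.82 ± 0.25 did not pass the threshold (adjusted p = 0.0219, limma). All of its 50-base words, the length of one read, occur elsewhere in the GRCh37 genome, at 68 other places. By the study's methods the aligner was allowed more than a single place per read, up to a cap far below 68. For 27 of the 81 members tested, at least 50% of such words occur elsewhere. Across members the share of such words and the coefficient of variation had a Spearman rho of 0.21 (n = 81 genes of the same libraries, a description only), and the part of shared sequence in any difference given here was not tested.

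**Figure D1:**
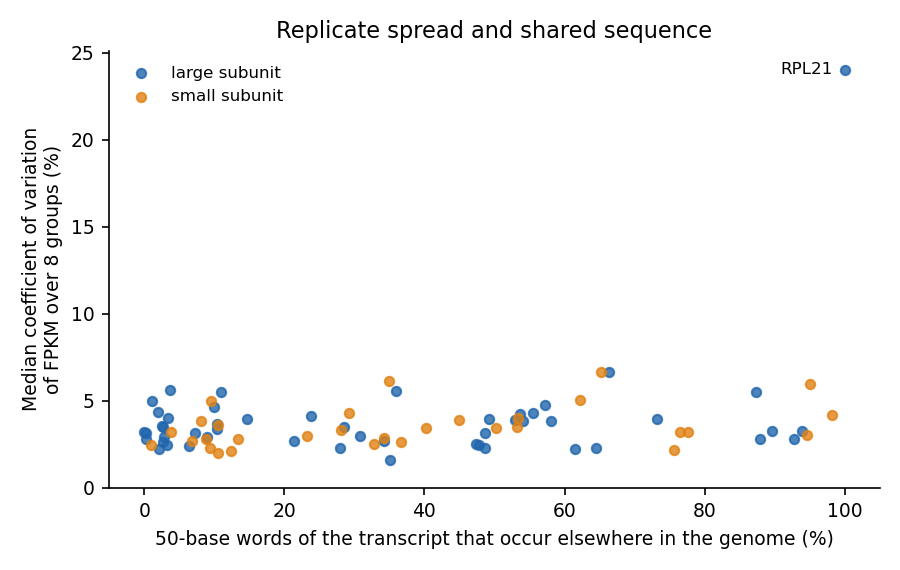
Median coefficient of variation of FPKM within groups (%, y axis) against the share of a transcript's 50-base words that occur elsewhere in the GRCh37 genome (%, x axis), 1 point per member tested, coloured by subunit. RPL21 stands at 24.0%, while every other member lies between 1.60% and 6.68% at any share.

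The median level of the members was higher at later times in vehicle and, at 24 h, higher still with CBD. For each sample, the median over members of the deviation from the gene's mean over the 32 samples was taken on the log2 scale. In vehicle samples it was -0.12 to -0.084 at 3 h, -0.081 to -6.0e-05 at 6 h, -0.056 to 0.017 at 12 h and 0.014 to 0.072 at 24 h. In CBD samples it was -0.096 to 0.051, -0.090 to 0.023, -0.022 to 0.034 and 0.12 to 0.20 at the same times. The 4 CBD samples lay above the 4 vehicle samples at 24 h, and the groups overlapped at 3, 6 and 12 h. Of the CBD samples at 3 h only replicate 1, at -0.096, lay within the vehicle range. The median of the large-subunit members minus that of the small-subunit members stayed between -0.026 and 0.056 in all 32 samples, and was 0.010 to 0.017 in vehicle and 0.019 to 0.056 in CBD samples at 24 h.

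**Figure D2:**
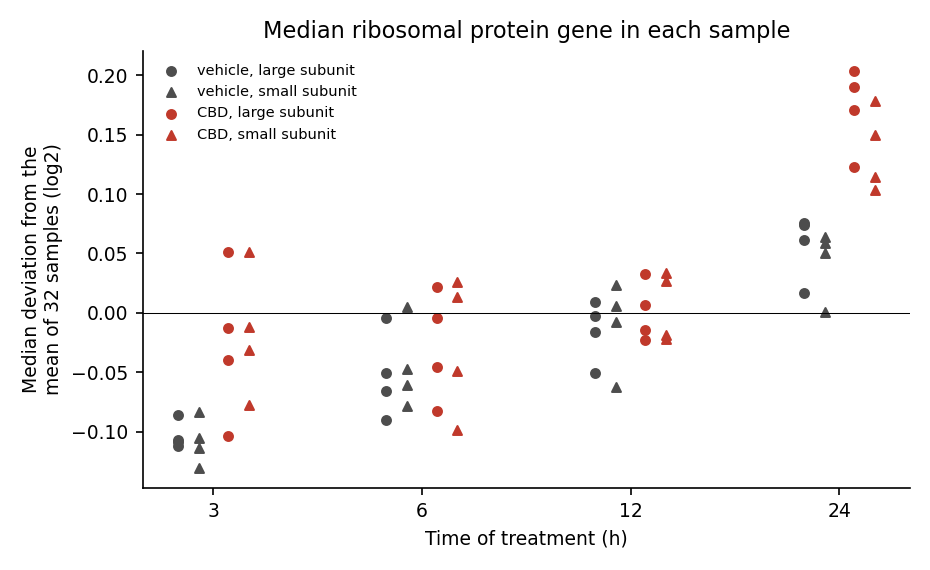
Median deviation of the members from their mean over the 32 samples (log2, y axis) in each sample against time (h, x axis), for large-subunit (circles) and small-subunit members (triangles) in vehicle (grey) and CBD (red). Both subunits climb together in vehicle, and the CBD samples lie above the vehicle samples at 24 h.

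In vehicle, 53 of the 81 members tested were higher at 24 h than at 3 h and 5 were lower, where 57.8% of all rows tested were called, 26.6% higher and 31.1% lower. Under quantile normalization 33 members were higher and 12 lower, against 24.6% and 31.5% of all rows. The median difference of the members was 0.16, a 1.12-fold level, against -0.013 over all rows. RPL13A, which can also leave the ribosome to silence inflammatory mRNAs, rose from 175, 168, 178 and 176 FPKM to 253, 243, 259 and 253, by 0.53 ± 0.037 (adjusted p = 1.76e-12, limma). These groups do not overlap. RPL5, RPS6 and RPS3 rose by 0.38, 0.31 and 0.27, and RPSA and RPS27A were not called (0.0072 and 0.046). Of the 5 paralogs tested, none was higher and 4 fell: RPL39L by 0.31, RPL26L1 by 0.27, RPS27L by 0.26 and RPL7L1 by 0.22. The fifth member that fell was RPS26, by 0.22, named because the count is small.

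CBD against vehicle gave few calls among the members until 24 h. At 3 h, 3 of 81 were called, all higher, where 2.46% of all rows were called, 1.18% higher and 1.28% lower. At 6 h, 5 were higher and 1 lower, against 10.2% of all rows (4.07% higher, 6.13% lower). At 12 h 2 were higher and 1 lower, against 20.1% (8.85% higher, 11.2% lower). At 24 h, 28 were higher and 2 lower, where 42.1% of all rows were called. The share called higher, 34.6%, was above the 20.8% of all rows and the share called lower, 2.47%, was below their 21.3%. The median difference of the members was 0.080, 0.019, 0.018 and 0.10 at 3, 6, 12 and 24 h, where the median of all rows lay between -0.0048 and 0.0066. At 24 h this was a 1.07-fold level, and 78 of 81 members were above 0. The 4 and 4 samples did not overlap for 42 members that were higher and 2 that were lower, 54.3% of those tested, against 51.0% of all rows. At 3, 6 and 12 h the samples did not overlap for 16, 13 and 4 members, against 9.88%, 19.6% and 30.3% of all rows. The larger share of higher calls at 24 h did not hold under every setting. With median-ratio scaling between samples 15 members were higher and 2 lower, and those higher were 18.5% of members against 17.6% of all rows. With quantile normalization 13 were higher and 4 lower, the higher ones 16.05% of members against 21.1% of all rows, and the median was 0.030 with 44 members above 0 and 37 below. Without vehicle replicate 2, 16 were higher and 2 lower, the higher ones 19.8% of members against 19.1% of all rows. The share called lower was below that of all rows in each of these 3 settings, at 2.47% of members against 25.7% of all rows, 4.94% of members against 21.8% of all rows and 2.47% of members against 18.7% of all rows. At 6 h quantile normalization left 0 members higher and 2 lower. The 3 calls at 3 h became 0 without any of 6 of the 8 samples and 12 without CBD replicate 1.

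**Figure D3:**
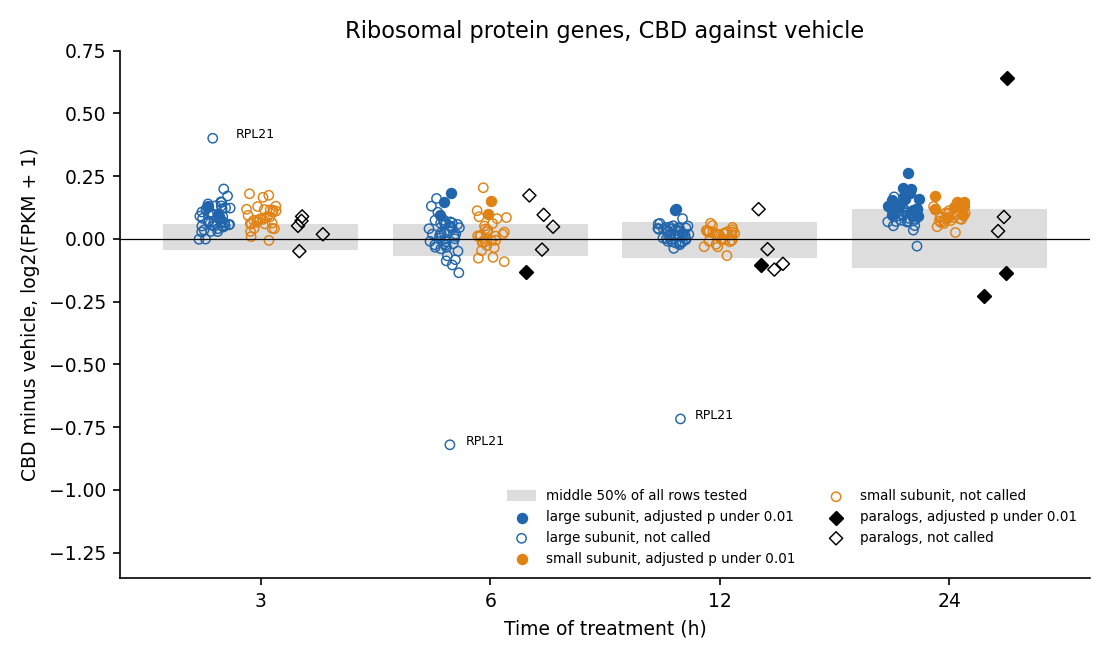
Difference between CBD and vehicle in log2(FPKM + 1) (y axis) at each time (h, x axis) for the 81 members tested; filled marks are called at an adjusted p under 0.01, diamonds are paralogs, and the grey band holds the middle 50% of all rows tested. At 24 h the core members lie between -0.028 and 0.26, with RPL22L1 above them at 0.64 and RPL26L1 and RPL7L1 below at -0.23 and -0.14.

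The medians of the subunits were close at 24 h, and their difference was not tested. Of the 50 large-subunit members tested, 18 were higher and 2 lower with a median of 0.11, and of the 31 small-subunit members 10 were higher and none lower with a median of 0.095. At that time 20.8% of all rows were called higher and 21.3% lower. The 28 higher members were so by 0.082 to 0.64, or 1.06-fold to 1.56-fold, and none differed by 1 or more on the log2 scale. In vehicle over time, 18 of the 28 also rose and 10 were not called, where 65.4% of all 81 members tested rose. No member was called at all 4 times; RPL12, RPL3 and RPL7L1 were called at 3 times each, 22 members at 24 h alone, and 50 at no time.

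Among core proteins RPL12, which joins the base of the ribosomal stalk where elongation factors bind, had the largest rise at 24 h. The gene lies at chr9:130209953-130213685, minus strand (GRCh37). Its FPKM at 24 h were 1491, 1424, 1493 and 1491 in the vehicle and 1726, 1759.7, 1809 and 1783 in the CBD samples, so that the groups lie well apart. The difference was 0.26 ± 0.024 (adjusted p = 6.72e-10, limma), a 1.20-fold level. At 3 h the FPKM were 1212, 1196, 1211 and 1192 against 1281, 1315, 1277 and 1289, and at 12 h 1325, 1314, 1361 and 1283 against 1458, 1426, 1465 and 1374, again without overlap. The differences were 0.10 at 3 h, 0.045 at 6 h and 0.11 at 12 h, the one at 6 h not called. The 3 h call was lost without any 1 of the 8 samples and under 6 alternatives (adjusted p up to 0.960), and the 12 h call under quantile normalization and when 12 h was fitted alone (up to 0.0257, limma). Of the 50-base words of RPL12, 61.5% occur elsewhere in the genome.

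RPL3, which shapes the peptidyl transferase centre, and RPL10A, a protein of the stalk on the other side of the large subunit, came next. At 24 h RPL3 had 1508, 1439, 1476 and 1522 FPKM in vehicle and 1634, 1709, 1779 and 1732 with CBD, a difference of 0.20 ± 0.030 (adjusted p = 2.48e-06, limma). RPL10A had 892, 838, 867 and 868 FPKM in vehicle and 964, 997, 1027 and 985 with CBD, a difference of 0.20 ± 0.029 (adjusted p = 2.5e-06, limma). Neither gene's groups overlap at 24 h. At 3 h they differed by 0.13 and 0.13, and these calls were lost when 3 h was fitted alone, without the filter, under quantile normalization and without any 1 of 7 of the 8 samples (adjusted p up to 0.501 and 0.0584 over the alternatives). With a replicate block 1 member was called at 3 h, so the 3 h calls of RPL3 and RPL10A did not both hold. RPL3 was also called at 12 h, by 0.12. It had 1315, 1341, 1383 and 1313 FPKM in vehicle and 1491, 1439, 1530 and 1366 with CBD there, which overlap. Under quantile normalization the difference of RPL3 at 24 h was -0.00097, while RPL10A and RPL12 kept their calls there.

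**Figure D4:**
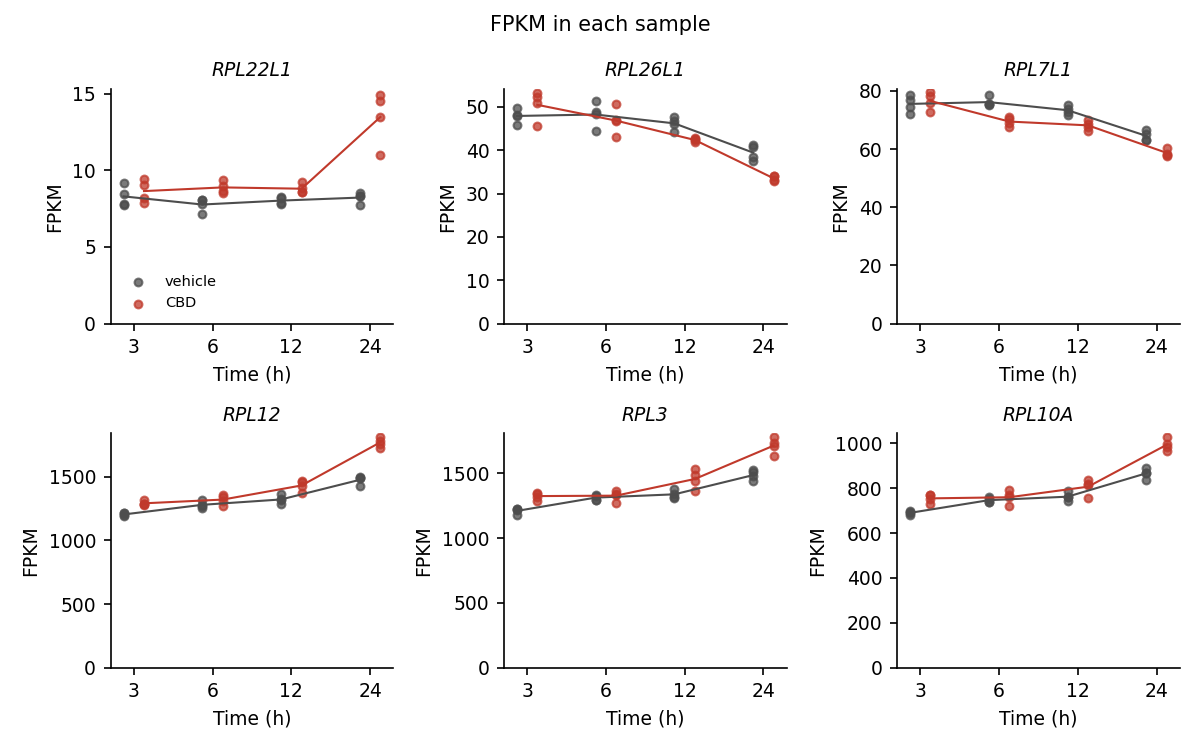
FPKM (y axis, from 0) in each of the 32 samples against time (h, x axis) for 6 members, vehicle in grey and CBD in red, with lines through the group means of 4 samples. RPL22L1 is flat in vehicle and rises with CBD at 24 h, RPL26L1 and RPL7L1 fall with time and lie lower with CBD at 24 h, and RPL12, RPL3 and RPL10A climb in both arms and lie higher with CBD at 24 h.

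The acidic stalk proteins, which recruit elongation factors, were higher at 24 h: RPLP0 by 0.093, RPLP1 by 0.17 and RPLP2 by 0.14, each without overlap of the groups. RPLP1 had 2204, 2167, 2152 and 2078 FPKM in vehicle and 2384, 2418, 2472 and 2399 with CBD. RPLP2 was also higher at 6 h, with 1476, 1434, 1332 and 1325 FPKM in vehicle and 1496, 1619.6, 1532 and 1511 with CBD, by 0.15 ± 0.035 (adjusted p = 0.00368, limma). RPSA, the laminin receptor and small-subunit protein, was not called at any time (0.071 at 24 h). With median-ratio scaling RPLP0 and RPLP1 were no longer called at 24 h, nor was RPLP0 when 24 h was fitted alone, and under quantile normalization the differences of RPLP0, RPLP1 and RPLP2 were -0.035, -0.040 and -0.038, none called.

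Of the proteins that can bind MDM2, RPL23 and RPL5 were higher at 24 h, by 0.16 ± 0.031 and 0.13 ± 0.039 (adjusted p = 0.000139 and 0.00698, limma), and RPL11 had 0.098 ± 0.031 with an adjusted p of 0.010003, just above the threshold. RPL5 was no longer called with median-ratio scaling, and neither RPL5 nor RPL23 was under quantile normalization. RPS4X, the X-linked small-subunit protein, was higher by 0.082, a call lost with median-ratio scaling and when 24 h was fitted alone. RPS6, the substrate of S6 kinase, had 0.049 ± 0.056, RPS27A, which is made as a fusion with ubiquitin, 0.089 ± 0.043, RPL13A 0.11 ± 0.037, RPS3 0.062 ± 0.026 and RPS19, a gene mutated in Diamond-Blackfan anaemia, 0.086 ± 0.033; none of these 5 was called. At 6 h RPL13 had the largest called difference, with 152, 155, 149 and 147 FPKM in vehicle and 168, 182, 174 and 163 with CBD, which do not overlap. It differed by 0.18 ± 0.044 (adjusted p = 0.00395, limma), and at 24 h by 0.18 ± 0.044 (adjusted p = 0.00101, limma). RPS21 was called at 6 h, by 0.15, and not at 24 h, where it had 0.066; RPL37A was called at both, by 0.095 and 0.16. When 6 h was fitted alone, no member was called there, and the 6 h call of RPL13 was also lost without vehicle replicate 3 or 4 or CBD replicate 2 or 3.

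Of the 5 paralogs tested, 1 was higher and 2 were lower with CBD at 24 h, where 20.8% of all rows were called higher and 21.3% lower. RPL22L1, the paralog of the RNA-binding protein RPL22, lies at chr3:170582664-170587997, minus strand (GRCh37). It had 8.29, 8.33, 7.73 and 8.51 FPKM in vehicle and 14.5, 11.0, 14.9 and 13.5 with CBD at 24 h, and its lowest CBD sample stood above every sample of the other 7 groups. The difference was 0.64 ± 0.065 (adjusted p = 5.35e-09, limma), the largest rise among the members tested. At 3, 6 and 12 h it was 0.052, 0.17 and 0.12, not called. The 4 and 4 samples of RPL22L1 did not overlap at 6 and 12 h, as in 19.6% and 30.3% of all rows. The parent RPL22 had 237, 233, 239 and 239.7 FPKM in vehicle and 245, 242, 246 and 252 with CBD at 24 h and was not called (0.052 ± 0.024). The level of RPL22 relative to RPL22L1 was 28.9-fold in vehicle and 18.3-fold with CBD. Few words of RPL22L1 (1.08%) occur elsewhere in the genome.

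RPL26L1 and RPL7L1 were the 2 members lower at 24 h. RPL26L1, a close copy of RPL26, lies at chr5:172385732-172396774, plus strand (GRCh37). It had 38.5, 37.4, 40.7 and 41.1 FPKM in vehicle and 32.8, 34.0, 33.0 and 34.1 with CBD, which do not overlap. It fell by 0.23 on the log2 scale (standard error 0.046, adjusted p = 0.000147, limma), whereas RPL26 rose by 0.16, a call lost with median-ratio scaling and when 24 h was fitted alone, and of the opposite sign (-0.042, not called) under quantile normalization. At 3, 6 and 12 h RPL26L1 differed by 0.072, -0.042 and -0.12, not called. Its samples did not overlap at 12 h, as in 30.3% of all rows. Elsewhere in the genome lie copies of 52.9% of the words of RPL26L1 and 53.7% of those of RPL26. Whether these copies lie in the other gene of the pair, and how reads were divided, was not tested.

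RPL7L1, related to RPL7, lies at chr6:42847354-42857663, plus strand (GRCh37) and was lower at 6, 12 and 24 h. At 24 h it had 63.2, 63.2, 66.4 and 65.2 FPKM in vehicle and 58.4, 57.7, 60.3 and 58.1 with CBD. At 6 h it had 78.7, 75.3, 75.2 and 75.3 in vehicle and 71.1, 68.9, 67.4 and 70.3 with CBD. The groups do not overlap at either time. The differences were -0.13 ± 0.028, -0.10 ± 0.028 and -0.14 ± 0.028 at 6, 12 and 24 h (adjusted p = 0.00126, 0.00469 and 0.000188, limma), with 0.019 at 3 h. The 6 h call was lost when 6 h was fitted alone, and the 12 h call under quantile normalization and without replicate 1 of either arm, vehicle replicate 3 or CBD replicate 2. RPL7 itself had 0.11 ± 0.084 at 24 h and was not called. RPL39L, whose parent lies in the wall of the exit tunnel, and RPS27L, a p53-responsive gene, were not called at any time, with 0.031 and 0.088 at 24 h. The calls of RPL22L1, RPL12, RPL26L1 and RPL7L1 at 24 h held under each alternative and without each single sample, with adjusted p of at most 0.000694, 0.000171, 0.000857 and 0.00157 over the alternatives (limma).

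A paralog set against its parent within the same sample depends little on how that sample was scaled. For the 5 pairs at 4 times, an exact two-sided permutation test of 4 against 4 samples cannot give a p below 0.0286, and adjusted over the 20 tests none passed 0.05 (smallest adjusted p = 0.0816). At 24 h, log2 RPL22L1 minus RPL22 differed by 0.59, RPL26L1 minus RPL26 by -0.39 and RPL7L1 minus RPL7 by -0.24 between CBD and vehicle, and in each the 4 and 4 samples do not overlap (exact p = 0.0286, the smallest these tests can give). RPS27L minus RPS27 and RPL39L minus RPL39 differed by 0.00950 and -0.090 (exact p = 0.886 and 0.286). Of the earlier times, the samples also lay apart at 12 h for RPL22L1 minus RPL22 (0.13) and RPL26L1 minus RPL26 (-0.14). RPL39L minus RPL39 had the same smallest p at 3 h and at 12 h with opposite signs (0.090 and -0.12).

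**Figure D5:**
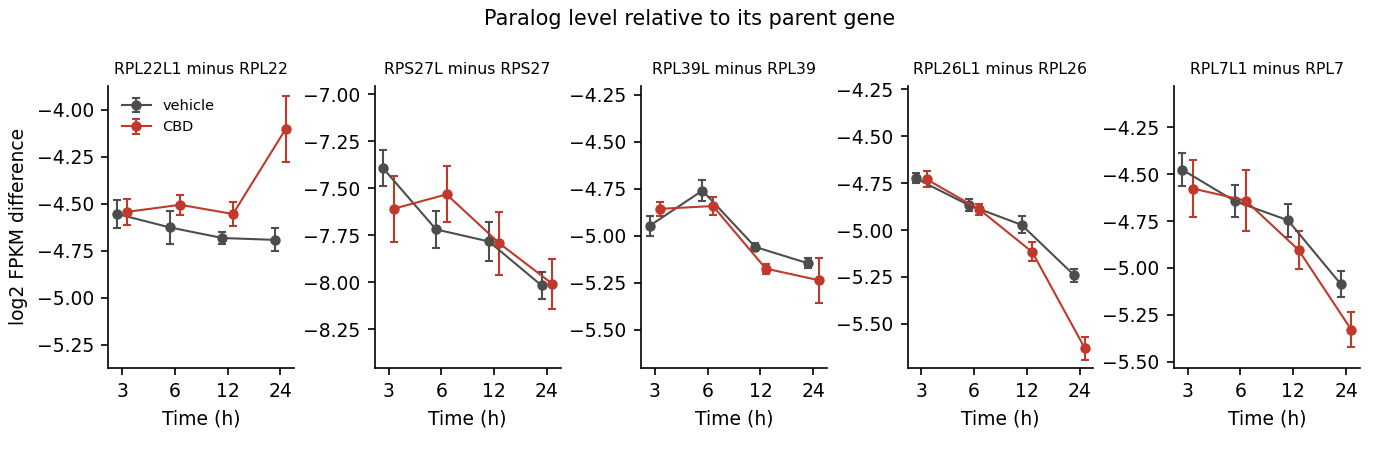
Log2(FPKM + 1) of each paralog minus that of its parent (y axis) against time (h, x axis), mean and SD of 4 samples, vehicle in grey and CBD in red; the panels have different origins and the same span. The CBD line leaves the vehicle line upward for RPL22L1 and downward for RPL26L1 and RPL7L1 at 24 h.

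The effect of CBD at 24 h minus that at 3 h was called for 4 of the 81 members, where 27.2% of all rows were called, 14.3% lower. It was 0.59 ± 0.092 for RPL22L1, 0.16 ± 0.034 for RPL12, -0.30 ± 0.065 for RPL26L1 and -0.15 ± 0.039 for RPL7L1 (adjusted p = 1.24e-05, 0.000399, 0.000570 and 0.00269, limma). The call of RPL7L1 was lost when the groups compared were fitted alone and under quantile normalization (adjusted p up to 0.0446). For the other members a difference between the 3 h and 24 h effects was not shown. The median of this change was 0.020 over all 81.

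Features that the naming rule did not use gave similar medians at 24 h. The 47 members with the start tract had a median difference of 0.10 (15 higher, or 31.9%, and 0 lower). The 19 tested members without the tract had 0.10 (7 higher, or 36.8%, and 2 lower). All rows were called higher in 20.8% and lower in 21.3%. The 2 lower members were the paralogs RPL26L1 and RPL7L1. The 54 members with fewer than 50% of words elsewhere had 0.10 and the other 27 0.11. At 6 h these 2 sets differed in sign, with medians of 0.042 and -0.019. Called were 6 (11.1%) and 0 members, where 10.2% of all rows were called. The difference between the sets was not tested.

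The rest of the translation machinery was described from lists of known genes. Of 4 ribosomal proteins named otherwise that were tested, GNB2L1 (RACK1), a scaffold on the small subunit, was called at 24 h, higher by 0.15. At 24 h 20.8% of all rows were called higher and 21.3% lower. Of 35 translation factors, 17 were higher and 4 lower, with a median of 0.11. EIF4B, a helper of the helicase EIF4A, rose by 0.23, EIF4A2, a form of that helicase, by 0.36, EIF2S2, the beta subunit of eIF2, by 0.30, PABPC1, the poly(A)-binding protein, by 0.17 and the elongation factor EEF2 by 0.17, whereas EIF4G2 fell by 0.38. Of 35 ribosome biogenesis genes tested, 13 were higher and 2 lower at 24 h, with a median of 0.058; RRP12, which helps export of the subunits, rose by 0.34 and UBTF, an activator of RNA polymerase I, fell by 0.38. In vehicle over time the biogenesis list had 0 genes higher and 18 lower at 24 h, where 26.6% of all rows were higher and 31.1% lower. At 3 h, where 2.46% of all rows were called, the biogenesis list had 1 gene called, TSR1 (higher by 0.096), and the factors had 1, EIF5 (lower by 0.19). At the same 24 h comparison 7 of 12 neuroblastoma markers were lower and 1, MYCN, higher by 0.54. Only 2 of the 12 lay above 0, and their median difference was -0.18. The summed level of the 12, MYCN included, was 4848 to 4905 FPKM in vehicle and 5003 to 5209 with CBD. Of the 12 markers of other cell types, 4 were tested, of which 2 were higher and 1 lower, with sums of 58.0 to 65.6 and 64.5 to 69.1 FPKM. Their part in the results was not tested.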

How the data were processed

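The authors deposited FPKM, reads scaled to transcript length and mapped reads, for 32 RNA-Seq libraries of single 50-base reads. By their methods, reads were trimmed with Trimmomatic (version 0.36 per the labels), aligned to hg19 with TopHat, allowing reads to map to more than one place, and quantified with Cufflinks; no further scaling is stated. Sources differ on the library kit. A second deposited table holds the authors' own fold changes and q-values and was not used. Groups came from the labels.

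FPKM were transformed to log2(FPKM + 1), rows whose FPKM averaged under 1 were left out, and all 8 groups entered a single limma fit, limma 3.58.1 (eBayes with trend) in R 4.3.3, with Benjamini-Hochberg adjustment in each comparison. A count test needs reads, which FPKM do not hold. Depth is unknown; its ratios between samples came from the lowest values of 1414 genes. Paralog pairs were tested by full enumeration of the permutations in Python 3.11.15 with numpy 2.4.6, and their p-values adjusted with statsmodels 0.14.6. Words of 50 bases of the annotated transcripts (GENCODE on GRCh37) were sought on both strands of that genome, and start sequences came from RefSeq (GRCh38.p14), without moving coordinates between builds.

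Genes named were the paralogs with their parents, stalk proteins, other known members, the 3 highest and 3 lowest called members without overlap at each time, and those with extreme levels; the text marks others. Members and lists were chosen with earlier results of these data known. Alternatives were other added values, filters, scalings, fits, thresholds and samples left out.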

Additional observations from a re-analysis of the deposited data

Results flagged for a closer look

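Among 31 members in 8 groups of 4 samples, with the median and the subunit difference of each sample, 264 groups were examined for a sample far from the others, and 14 were found; chance gives about 1 in 20, here 13.2. In FPKM, at 3 h these were RPS3 in vehicle replicate 4 (1076 against 1126 to 1129 in the others), RPS3 in CBD replicate 4 (1218 against 1139 to 1149) and RPL10 in CBD replicate 1 (546 against 489.8 to 498). At 6 h they were all in vehicle: RPL22 (211 against 216 to 217), RPL7 (1764 against 1969 to 1998) and RPL5 (856 against 897 to 902) in replicate 2, and RPL7L1 (78.7 against 75.2 to 75.3) in replicate 1. At 12 h they were RPL7 in vehicle replicate 1 (1842 against 2030.0 to 2062), RPSA (250.3 against 265 to 267) and RPL13 (147 against 158 to 159) in vehicle replicate 4, and RPL37A in CBD replicate 3 (3137 against 2988 to 3012). At 24 h they were RPL12 (1424 against 1491 to 1493) and RPL5 (1027 against 1079 to 1083) in vehicle replicate 2 and RPSA in vehicle replicate 4 (269 against 259.7 to 261).

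By the interaction test, the 24 h effect differed from the 3 h effect for RPL22L1 (0.59 on the log2 scale), RPL12 (0.16), RPL26L1 (-0.30) and RPL7L1 (-0.15).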

How the results depend on the processing

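The counts of members called moved with scaling, threshold, fit and the samples used. The main counts were 3, 6, 3 and 30 at 3, 6, 12 and 24 h, 4 for the change between 3 and 24 h and 58 for vehicle over time. Either median-ratio scaling gave 17 at 24 h. Quantile normalization gave 1, 2, 1 and 17 at the 4 times and 9 for the change, medians of 0.012, -0.025 and 0.030 at 3, 12 and 24 h, and differences at 24 h of -0.042 for RPL26, -0.00097 for RPL3, -0.035 for RPLP0, -0.040 for RPLP1 and -0.038 for RPLP2, and over time in vehicle of -0.051 for RPS21 and -0.0076 for RPS4X. The cause was not tested. Without a filter 0 and 3 were called at 3 and 6 h, and with the compared groups alone 0 and 0 at the same times. At a threshold of 0.05 the counts were 13, 13, 7 and 51, and 7 for the change. Leaving out 1 sample gave 0 to 12, 2 to 9, 1 to 4 and 18 to 38, with 4 to 5 for the change and 49 to 58 in vehicle. At 3 h it was 0 without vehicle replicates 2, 3 or 4 or CBD replicates 2, 3 or 4, 1 without vehicle replicate 1 and 12 without CBD replicate 1; at 6 h 2 without vehicle replicates 3 or 4 or CBD replicate 2; at 12 h 1 without replicate 1 of either arm; at 24 h 18 without vehicle replicate 2. The medians ranged over 0.063 to 0.098, 0.00468 to 0.042, 2.48e-05 to 0.029 and 0.089 to 0.12. The same replicate numbers did not deviate together (correlations from -0.076 to 0.094), so they were not taken as pairs; a replicate block gave 1 call at 3 h and moved no other count of members by over 1.5 times. For the 31 members examined singly, 2121 recomputed values kept their side of the threshold under the alternatives. Where called in both fits they kept their direction, and where called in neither the sign was not compared. A call was lost in 74 and gained in 30 with the direction kept. The 7 of opposite sign given above also lost theirs. Unknown depth limits what can be said of low genes such as RPL22L1.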

Other observations

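RPL3L, a muscle form of RPL3, and RPL10L, a testis form of RPL10, were near the lower limit of the table. RPL3L had 0.279, 0.256, 0.377 and 0.317 FPKM in vehicle and 0.138, 0.223, 0.255 and 0.125 with CBD at 24 h, and 0.125, 0.0704, 0.113 and 0.0820 in vehicle at 3 h. RPL10L was listed at 0 in all 4 vehicle samples at 3 h and reached at most 0.0743 FPKM, in vehicle at 24 h. Neither RPL3L nor RPL10L entered the main fit. Without the filter all 83 members were fitted, and 3 were called lower with CBD at 24 h, against 2 in the main fit. For the CBD effect at 24 h minus that at 3 h, 3 were called lower without the filter, against 2. These counts do not name the members, so a call of RPL3L or RPL10L cannot be read from them.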
